A study of Caenorhabditis elegans with 36 samples.

Results

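The genes described here are 9 genes of insulin signalling and of the arrest of unfed first-stage larvae in C. elegans: daf-2, age-1, akt-1, akt-2, sgk-1, daf-18, daf-16, aak-2 and sod-3. They were chosen by name for their place in the pathway, with earlier results of these data known, and they are 9 of the 46926 genes in each deposited count table. All 9 passed the filter on low counts in both tables, with 17687 genes tested in embryos and L1 larvae and 17492 tested at L4. The data are poly(A) RNA-seq of whole animals, 24 libraries with 3 labelled biological replicates in each of 8 groups, from a study of xnp-1, which encodes the worm counterpart of ATRX, a chromatin remodeller.

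Embryos of the wild type N2 and embryos labelled xnp1 (written xnp-1 below) were taken with hypochlorite from adults grown on OP50 bacteria at 20 °C. L1 larvae of both genotypes were such embryos kept in M9, a salt buffer without bacteria, for about 11 h at 20 °C. The time between hatching and harvest is not given in the sources used here, and no L1 group was fed, so a difference between L1 larvae and embryos cannot be told apart from a response to the absence of food. L4 larvae grew at 25 °C and fell into 4 groups by label: N2, both single genotypes (xnp-1 or gsox-1), and the double, xnp-1;gsox-1. The labels name no allele, and the study's design text calls the xnp-1 embryos and L1 larvae a knockdown. Embryo and L1 libraries and L4 libraries came from different sequencing centres and were counted with different settings, so no L4 level is tested against an embryo or L1 level.

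Insulin-like peptides act on DAF-2, the one known insulin receptor of the worm, which activates the phosphoinositide 3-kinase AGE-1. The lipid that AGE-1 makes recruits the kinases AKT-1 and AKT-2, which keep the FOXO transcription factor DAF-16 out of the nucleus, while the phosphatase DAF-18 removes that lipid. In larvae that hatch without food, low DAF-2 signalling frees DAF-16, and daf-18 and daf-16 are known to be needed for a stable arrest in the first larval stage. These steps are changes of lipids, of phosphorylation and of protein location, none of which was measured. The values below are mRNA levels.

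Levels are CPM, counts relative to library size, scaled between libraries with TMM, given for replicates 1, 2 and 3 in that order. A change was called where edgeR's quasi-likelihood test gave a p under 0.05 after Benjamini-Hochberg adjustment across the genes tested in its table, and log2 changes carry the standard error (SE) of the fit. Library totals were 29896459 to 41520291 fragments for the earlier stages and 39004451 to 45391494 reads at L4, and the smallest member count was 29, for sod-3 in an xnp-1 embryo library. Embryos of N2 had 401 ± 28.02 CPM of xnp-1 mRNA and xnp-1 embryos 131 ± 7.72 CPM (SD, n = 3), and 46.0 ± 5.73 CPM in xnp-1 L4 larvae against 75.5 ± 13.3 in N2. In L1 larvae it was 170.4 ± 6.62 CPM against 249 ± 33.3, a difference that was not called (adjusted p = 0.135, edgeR). gsox-1 mRNA was not lower in the libraries labelled gsox-1 (78.5 ± 3.54 CPM) than in N2 L4 larvae (56.9 ± 12.7 CPM), so its level does not check that label.

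Several libraries stood apart. The xnp-1 L4 libraries lay at 106 to 126 on the first principal component of the L4 table and the other 9 libraries at -55.7 to -28.2. In these xnp-1 libraries, 8 of 8 oocyte markers and 6 of 6 vitellogenins (yolk protein genes) were higher than in N2. Their summed levels were 3646 to 4483 CPM against 92.8 to 237 for oocyte markers and 17337 to 30617 CPM against 56.1 to 583 for vitellogenins. Early embryo markers summed to 85.9 to 97.1 CPM against 0.883 to 2.68. tbx-35 and sdz-1 were at 0 in all N2 L4 libraries, and med-1 was at 0 in all xnp-1 L4 libraries. Only 2 of these 8 markers passed the filter on low counts at L4, and both were called higher in xnp-1. Of the hypodermis markers, 4 of 6 were lower. These markers differ from the 3 other L4 groups, so for every L4 comparison with xnp-1 a change in the animals' stage or tissue makeup cannot be told apart from a change within cells. The double was low in vitellogenins, at 7.79 to 21.0 CPM, with 2 of 6 called lower than in N2, beside 1.04% of all genes. No marker of the other lists was called between the double and N2. The part of this in comparisons with the double was not tested. Throughout, fewer cells of a type and less RNA per cell cannot be told apart in whole animals. First libraries of N2 and xnp-1;gsox-1 at L4 were low in body wall muscle markers, at 5728 and 5434 CPM against 8758 to 10694 in the other 4 libraries of those groups. The first xnp-1 L4 library was also the lowest of its group, at 6087 CPM against 7423 and 8118.5. Among embryos, xnp-1 library 1 held more early embryo marker RNA, at 173 CPM against 76.5 to 83.6 in the other 5 libraries. N2 L1 library 1 lay at 116.7 on the first component of its table and the other N2 L1 libraries at 46.6 and 61.8. It held 19776 CPM of muscle markers against 9512 and 12864, and 978 CPM of hypodermis markers against 2747 and 2952. It was the highest N2 L1 library for daf-2, akt-1, akt-2, sgk-1, daf-16, aak-2 and sod-3, and xnp-1 L1 library 1 was the highest of its group for the same genes, with 14517 CPM of muscle markers. The part of this in their changes was not tested.

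Between embryos and unfed L1 larvae of N2, mRNA of both Akt kinases, of daf-16 and of its target sod-3 was higher in the larvae, and mRNA of age-1 and daf-18 was lower. sod-3 moved most, by 8.65-fold. Of the 9 members, 4 rose (34.3% of all genes tested did) and 2 fell (25.2%), which is 6 of 9 called beside 59.5% of all genes, and the median member changed by 0.46 on the log2 scale beside 0.10 for all genes. The share of members called was close to that of genes at large, and the same holds for members whose libraries did not overlap between the stages, 6 of 9 beside 69.1% of all genes. In xnp-1 animals 3 members rose and 2 fell between the stages, beside 35.5% and 27.6% of all genes and 63% called in all, with a median of 0.29 beside 0.11. There 6 of 9 were separated by library, beside 70.8%. With library totals in place of TMM the all-gene medians were 0.19 in N2 and 0.30 in xnp-1. Without N2 embryo replicate 3 the N2 comparison called 3 members, and the share of all genes called in that fit is not given.

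**Figure D1:**
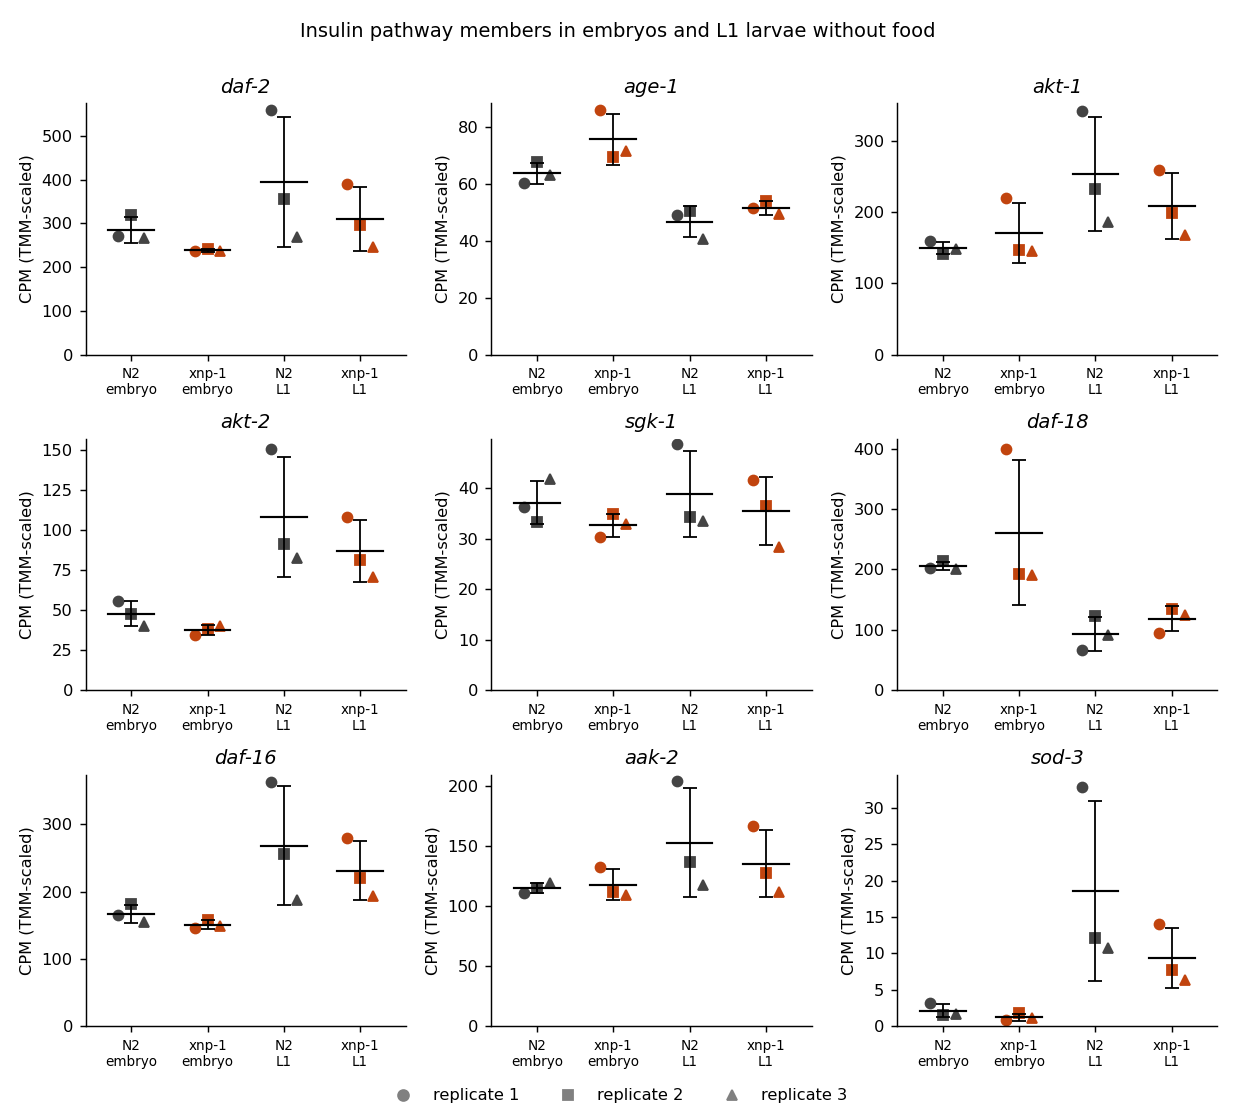
CPM (TMM-scaled) of the 9 members in each embryo and L1 library, one panel per gene, with the marker shape giving the replicate; lines and bars are the mean ± SD of 3 libraries, and each axis starts at 0. sod-3 lies at or under 3.14 CPM in all embryo libraries and at 6.37 to 32.9 CPM in the L1 libraries, and daf-18 reaches 399 CPM in xnp-1 embryo library 1.

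daf-2 (WBGene00000898, chromosome III, 2994514 to 3040846, minus strand, WBcel235) encodes the receptor. Its level was 271, 320.2 and 267 CPM in N2 embryos and 559, 357 and 268 CPM in N2 L1 larvae. The larval values spread widely, and the lowest of them lay within the embryo range. The change of 0.46 ± 0.24 on the log2 scale did not pass (adjusted p = 0.105, edgeR), while it was called at 0.67 without N2 L1 replicate 3 (adjusted p = 0.0183). In xnp-1 animals daf-2 was at 236, 241 and 237 CPM in embryos and at 389.8, 297 and 246 CPM in L1 larvae. Every larval library there lay above the embryos, with a change of 0.38 ± 0.24 that was not called (adjusted p = 0.168).

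age-1 (WBGene00000090, chromosome II, 11519328 to 11527054, minus strand) encodes the catalytic subunit of the phosphoinositide 3-kinase. It stood at 60.5, 67.6 and 63.1 CPM in N2 embryos and at 49.3, 50.4 and 40.5 CPM in N2 L1 larvae. All larval values were below all embryo values, and age-1 fell by 0.45 ± 0.14 on the log2 scale (adjusted p = 0.0183, edgeR). This call was lost without N2 L1 replicate 3 (adjusted p = 0.0529) and without N2 embryo replicate 2 or 3 (0.0586 and 0.0652). In xnp-1 animals age-1 went from 86.1, 69.4 and 71.6 CPM to 51.5, 54.2 and 49.3 CPM, and the decrease of 0.55 ± 0.14 was called (adjusted p = 0.00579).

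akt-1 (WBGene00000102, chromosome V, 10248905 to 10252845, plus strand) and akt-2 (WBGene00000103, chromosome X, 14147700 to 14152070, plus strand) encode the Akt kinases that phosphorylate DAF-16. akt-1 was at 159, 142 and 148 CPM in N2 embryos and at 342, 233 and 187 CPM in N2 L1 larvae. It rose by 0.76 ± 0.24 on the log2 scale (adjusted p = 0.0156, edgeR), with every larval library above every embryo library. The call rests on single libraries: without N2 L1 replicate 1 the value was 0.49 (adjusted p = 0.0797), and without N2 embryo replicate 2 or 3 the adjusted p was 0.0534 or 0.0552. In xnp-1 animals akt-1 overlapped between the stages, at 219.6, 147 and 146 CPM in embryos and 260.1, 199 and 168 CPM in larvae. The change of 0.29 ± 0.24 was not called (adjusted p = 0.293). The overlap came from embryo library 1, which had high early embryo and oocyte marker sums (173 and 375 CPM). The other embryo values lay below all larval values. With single libraries left out the change was 0.10 to 0.52 and was never called.

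akt-2 rose more than akt-1 did in the same libraries. Its level was 55.8, 47.7 and 40.0 CPM in N2 embryos and 151, 91.1 and 82.7 CPM in N2 L1 larvae. The groups were well apart, and the change was 1.18 ± 0.24 on the log2 scale, 2.26-fold (adjusted p = 0.00158, edgeR). xnp-1 animals showed 34.3, 38.5 and 40.4 CPM in embryos and 108, 81.3 and 70.8 CPM in larvae, a rise of 1.201 ± 0.24 (adjusted p = 0.00116). Both calls were kept under all 13 alternatives tried. The ratio of akt-1 to akt-2 counts per kb of exon, which needs no scaling between libraries, was 2.98, 3.10 and 3.87 in N2 embryos and 2.37, 2.67 and 2.36 in N2 L1 larvae. It was thus lower in every larval library, though the difference of the ratios was not tested.

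sgk-1 (WBGene00004789, chromosome X, 16254842 to 16262122, minus strand) encodes a related kinase that acts mainly downstream of TOR complex 2. Its levels were 36.3, 33.3 and 41.9 CPM in N2 embryos and 48.7, 34.3 and 33.5 CPM in N2 L1 larvae. The stages overlapped, and the log2 change was 0.06 ± 0.19 with a 95% interval of -0.38 to 0.51. It had the narrowest spread of the members over the 8 groups, with an SD of 0.15 of the group means (log2(CPM + 1), centred within each table).

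daf-18 (WBGene00000913, chromosome IV, 420011 to 425177, minus strand), the lipid phosphatase that opposes AGE-1, was lower in larvae. It was at 203, 213 and 200.3 CPM in N2 embryos and at 66.1, 123 and 90.8 CPM in N2 L1 larvae. The decrease was 1.14 ± 0.29 on the log2 scale, 2.21-fold (log2 change -1.14, adjusted p = 0.00565, edgeR). In xnp-1 animals daf-18 went from 399, 193 and 191 CPM in embryos to 95.4, 135 and 125 CPM in larvae, with the same log2 change of -1.14 ± 0.29 (adjusted p = 0.00485). The embryo value of 399 CPM was that of the library with high early embryo and oocyte marker sums (173 and 375 CPM), and without it the change was -0.69 and was still called (adjusted p = 0.0215). The lowest larval value, 66.1 CPM, was that of N2 L1 library 1, which also had the lowest oocyte marker sum among L1 libraries, 67.8 CPM, and the highest muscle marker sum, 19776 CPM. Oocyte and early embryo markers fell between the stages as well, with 7 of 8 oocyte markers lower in N2 larvae, and the part of this in daf-18 was not tested.

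Phosphatase and kinase mRNA did not fall in step. Per kb of exon, daf-18 outweighed age-1 by 3.96, 3.72 and 3.74 to 1 in N2 embryos and by 1.58, 2.87 and 2.64 to 1 in N2 L1 larvae. The ratio was lower in all larval libraries of N2. In xnp-1 it was 5.46, 3.27 and 3.14 in embryos and 2.18, 2.94 and 3.00 in larvae, which is again lower in every larval library. No test was made of these ratios.

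daf-16 (WBGene00000912, chromosome I, 10750498 to 10776703, plus strand), the FOXO factor, was at 165, 181 and 154 CPM in N2 embryos and at 362, 256 and 187 CPM in N2 L1 larvae. Each larval library exceeded each embryo library, the lowest larva by little, and the change was 0.69 ± 0.21 on the log2 scale (adjusted p = 0.0151, edgeR). In xnp-1 animals it went from 145, 158 and 149 CPM to 279, 221 and 194 CPM, a rise of 0.62 ± 0.21 (adjusted p = 0.0225). The N2 value was 0.41 without N2 L1 replicate 1 (adjusted p = 0.0782) and 0.64 without N2 embryo replicate 3 (0.0579). The xnp-1 value was 0.46 without xnp-1 L1 replicate 1 (adjusted p = 0.103) and lost its call without any 1 of the xnp-1 embryo libraries (0.0578 to 0.0633). Counts were per gene, so the several daf-16 isoforms are not resolved.

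aak-2 (WBGene00020142, chromosome X, 16796087 to 16803398, plus strand) encodes a catalytic subunit of AMPK, the energy-sensing kinase that acts beside the insulin pathway in starved larvae. It was at 111, 115 and 119.07 CPM in N2 embryos and at 204, 137 and 117 CPM in N2 L1 larvae. One larval value lay inside the embryo range, and the change of 0.41 ± 0.20 was not called (adjusted p = 0.0992, edgeR). It was called with library totals in place of TMM (0.50, adjusted p = 0.0411) and without N2 L1 replicate 3 (0.56, adjusted p = 0.0311). xnp-1 animals had 132, 112 and 109 CPM in embryos and 166, 128 and 112 CPM in larvae, with overlap and a change of 0.20 ± 0.20 (adjusted p = 0.406).

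sod-3 (WBGene00004932, chromosome X, 17092753 to 17094306, plus strand) encodes a mitochondrial manganese superoxide dismutase and is a standard readout of DAF-16 activity. It was at 3.14, 1.55 and 1.70 CPM in N2 embryos and at 32.9, 12.1 and 10.8 CPM in N2 L1 larvae. No embryo library came near the larvae, and the change was 3.11 ± 0.50 on the log2 scale (adjusted p = 0.000376, edgeR). xnp-1 embryos had 0.819, 1.78 and 1.11 CPM and xnp-1 larvae 13.99, 7.74 and 6.37 CPM, a rise of 2.91 ± 0.51 or 7.54-fold (adjusted p = 0.000512). The N2 value was 2.41 to 3.52 and the xnp-1 value 2.50 to 3.23 under 13 alternatives each, all of them called. Its paralogue sod-2, which encodes the other manganese enzyme, fell between the stages, so the 2 did not move together. Counting required a mapping quality of at least 10, and how the aligner scored reads matching both genes is not given in the sources used here.

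**Figure D2:**
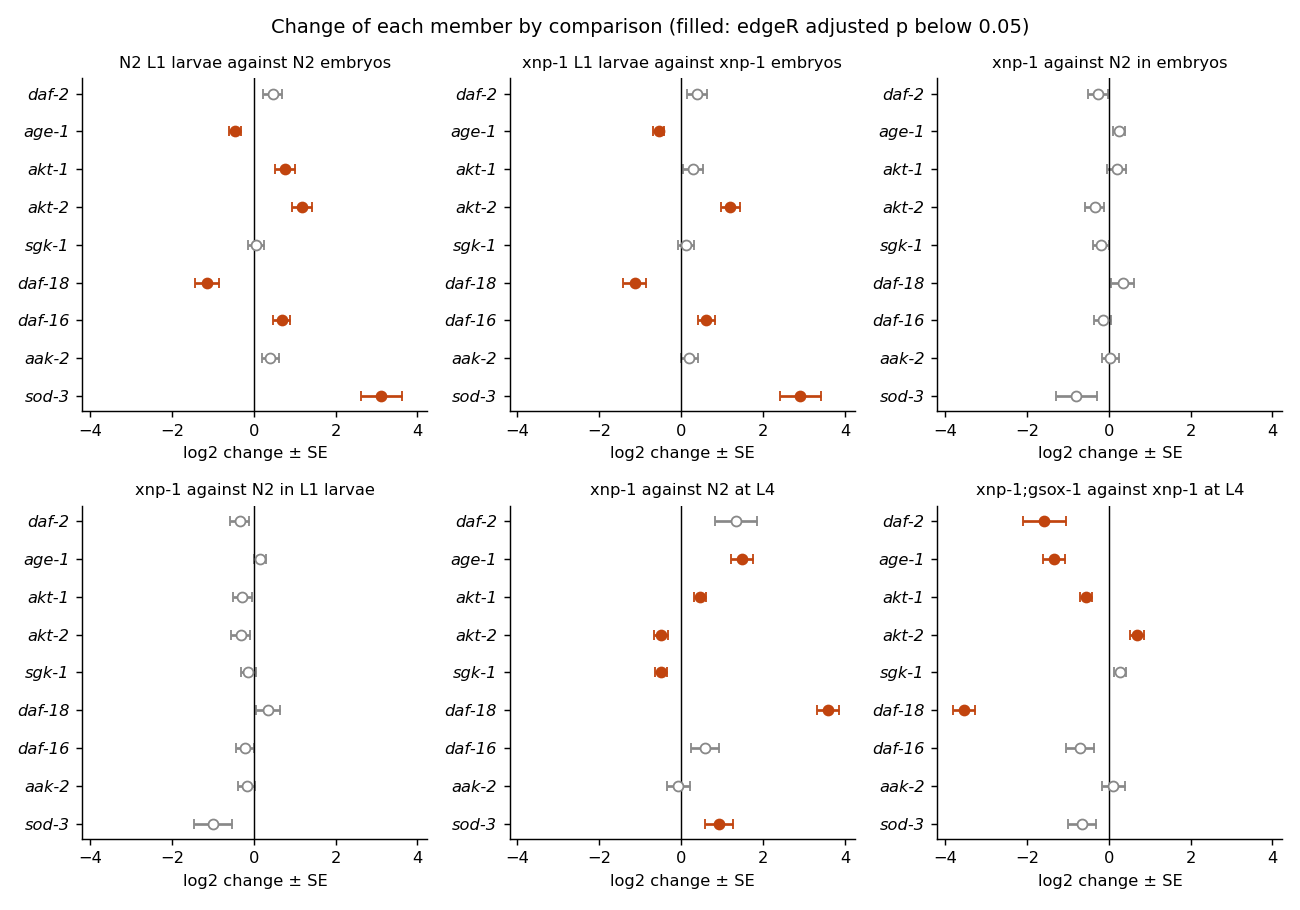
Log2 change ± SE of each member in 6 comparisons, from edgeR; filled points have an adjusted p below 0.05 and open points do not. sod-3, akt-2, daf-16, age-1 and daf-18 are filled in both comparisons of L1 larvae with embryos, none is filled between xnp-1 and N2 at those stages, and daf-18 lies at 3.59 in xnp-1 at L4 and at -3.53 in the double relative to xnp-1.

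Other genes of the pathway were taken from lists written with earlier results of these data known, and they are given as counts, to be read beside the 34.3% of all genes that rose and the 25.2% that fell in N2 larvae. Among insulin-like ligands, 6 of 11 tested rose in N2 larvae and 1, ins-6, fell, with a median of 1.92 on the log2 scale beside 0.10 for all genes. daf-28, an agonist of DAF-2, rose by 3.54 ± 0.44 (adjusted p = 5.49e-05, edgeR), from 0.283 to 3.45 CPM, and ins-18 rose by 1.92 ± 0.32. A list of 10 pathway components also held regulators of DAF-16 or DAF-2 output, such as rle-1, ddl-1 and ddl-2. Of these 10, 1 was higher and 3 (rle-1, pptr-1 and ddl-1) were lower, with a median of -0.33. The higher one was ist-1, the insulin receptor substrate homologue, at 1.38 ± 0.34. Of 20 tested genes known to rise when DAF-16 is active, 14 were higher and 1 lower, with a median of 1.13. These include the metallothionein gene mtl-1, at 5.47 ± 0.55 (0.702 to 31.8 CPM), and the small heat shock gene hsp-12.6, at 6.22 ± 0.68 (0.678 to 50.3 CPM). However, 7 of 12 genes known to fall when DAF-16 is active were higher as well and none was lower, with a median of 1.07.

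Among the other superoxide dismutases and catalases, 6 of 7 rose and 1 fell in N2 larvae, against the same 34.3% and 25.2% of all genes. In xnp-1 larvae 3 of 7 rose and 1 fell, beside 35.5% and 27.6% of all genes. The smallest adjusted p in N2 was that of the extracellular enzyme gene sod-4, at 2.33 ± 0.20 (adjusted p = 4.33e-06, edgeR). AMPK genes split, with 5 of 11 higher and 2 lower. The gamma subunit gene aakg-4 rose by 3.80 ± 0.50, while par-4, the LKB1 kinase that activates AMPK, fell by 0.86 ± 0.17 on the log2 scale. None of 9 TOR pathway genes rose, and 2 of them, let-363 (the TOR kinase) and ifg-1, fell. Of 19 genes of L1 arrest and fasting, 9 rose and 3 fell. The lysosomal lipase gene lipl-5 rose by 4.05 ± 0.52 and the glycogen synthase gene gsy-1 by 2.28 ± 0.32. cki-1, an inhibitor of the cell cycle that is reported to rise in arrested larvae under DAF-16, was lower here than in embryos, at 37.4 ± 9.70 CPM against 77.3 ± 4.17 (log2 change -1.05, adjusted p = 0.0011).

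**Figure D3:**
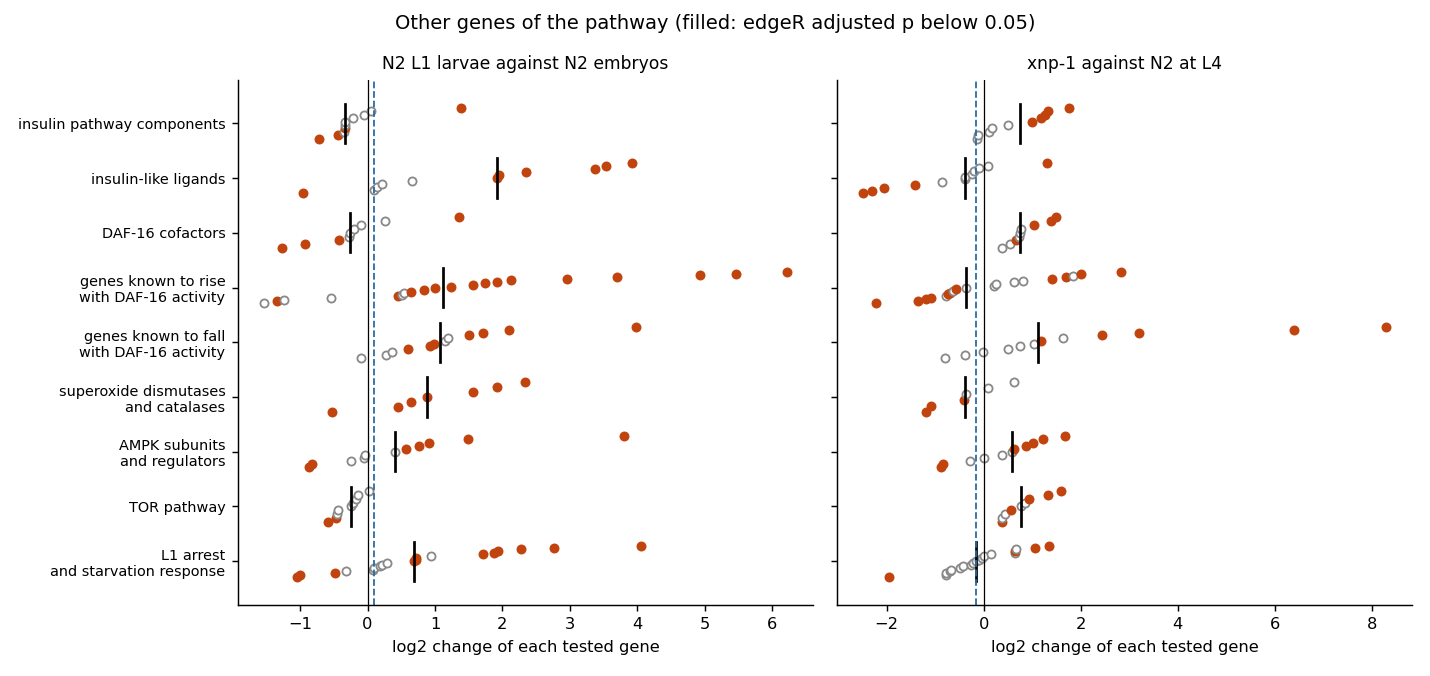
Log2 change of each tested gene of 9 pathway lists, in N2 L1 larvae relative to N2 embryos (left) and in xnp-1 relative to N2 at L4 (right); filled points have an edgeR adjusted p below 0.05, black bars are list medians, and the dashed line is the median of all genes. Ligands and genes known to rise with DAF-16 lie mostly right of the dashed line in larvae (medians 1.92 and 1.13). At L4 the medians of TOR genes and of DAF-16 cofactors, a list that includes parallel transcription factors, lie right of it (0.78 and 0.74).

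Between xnp-1 and N2, no member was called in embryos or in unfed L1 larvae. In embryos the count was 0 of 9 beside 1.11% of all genes, with 0 members at an unadjusted p under 0.05 in edgeR and 0 called by DESeq2. In L1 larvae it was 0 of 9 beside 0.481%, with 0 at an unadjusted p under 0.05 and 0 called by DESeq2. The libraries of daf-2 and age-1 did not overlap in embryos (2 of 9 beside 24.2% of all genes), with daf-2 lower in xnp-1 by 0.26 ± 0.24 and age-1 at 0.25 ± 0.14 on the log2 scale. In L1 larvae 0 of 9 were separated beside 10.7% of all genes. The 95% intervals in L1 larvae ran from -0.89 to 0.20 for daf-2, from -0.70 to 0.27 for daf-16 and from -2.05 to 0.07 for sod-3. A lower level of sod-3 by up to several-fold is therefore not excluded by this fit. The difference of the xnp-1 effect between the stages was called for 0 of 9 members, beside 0% of all genes and with 0 at an unadjusted p under 0.05 in edgeR and 0 by DESeq2.

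L1 libraries with the same replicate number deviated together in N2 and xnp-1, and a fit of these 2 groups with the replicate number as a block called 2 members, beside 11.6% of all genes. sod-3 was lower in xnp-1 in all 3 pairs (13.99 against 32.9, 7.74 against 12.1 and 6.37 against 10.8 CPM), with a log2 change of -0.90 (adjusted p = 0.00319, edgeR with the block). daf-18 was higher in all 3 pairs (95.4 against 66.1, 135 against 123 and 125 against 90.8 CPM), at 0.37 (adjusted p = 0.0326). Neither was called when all 4 groups were fitted with the block, beside 0.577% of all genes. That block includes the xnp-1 embryos, whose replicate numbers did not pair with those of any other group, so it does not settle these calls. Superoxide dismutases and catalases had a median of -0.62 in this comparison and the genes known to rise with DAF-16 one of -0.45, beside 0.01 for all genes, and 0 genes of any of the 9 pathway lists were called without the block. In embryos the one call among the lists was cdr-2, a gene that rises with DAF-16, at 9.97 ± 1.52 CPM in xnp-1 against 25.2 ± 5.90 in N2 (log2 change -1.34, adjusted p = 0.00782).

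At L4, xnp-1 larvae carried far more daf-18 mRNA than N2, more age-1, akt-1 and sod-3, and less akt-2 and sgk-1. In all, 4 members rose and 2 fell, beside 23.3% and 25.3% of all genes, so that 6 of 9 were called beside 48.5%, and 7 of 9 were separated by library beside 61.6%. The members' median was 0.58 on the log2 scale beside -0.16 for all genes. The all-gene median was -0.08 with RLE size factors and -0.09 with library totals, within 0.1 of the value with TMM. The count was 3 without any 1 of the xnp-1 libraries or without N2 replicate 2, fits for which the share of all genes is not given. In the libraries labelled gsox-1 no member was called relative to N2 (0 of 9 beside 0.0229% of all genes), and in xnp-1;gsox-1 none was called either (0 of 9 beside 1.04%). By library, 1 of 9 was separated in gsox-1 (age-1, higher, beside 10.1% of all genes) and 0 of 9 in the double (beside 14.7%). Both counts of calls were 0 at an unadjusted p under 0.05 in edgeR and 0 by DESeq2.

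**Figure D4:**
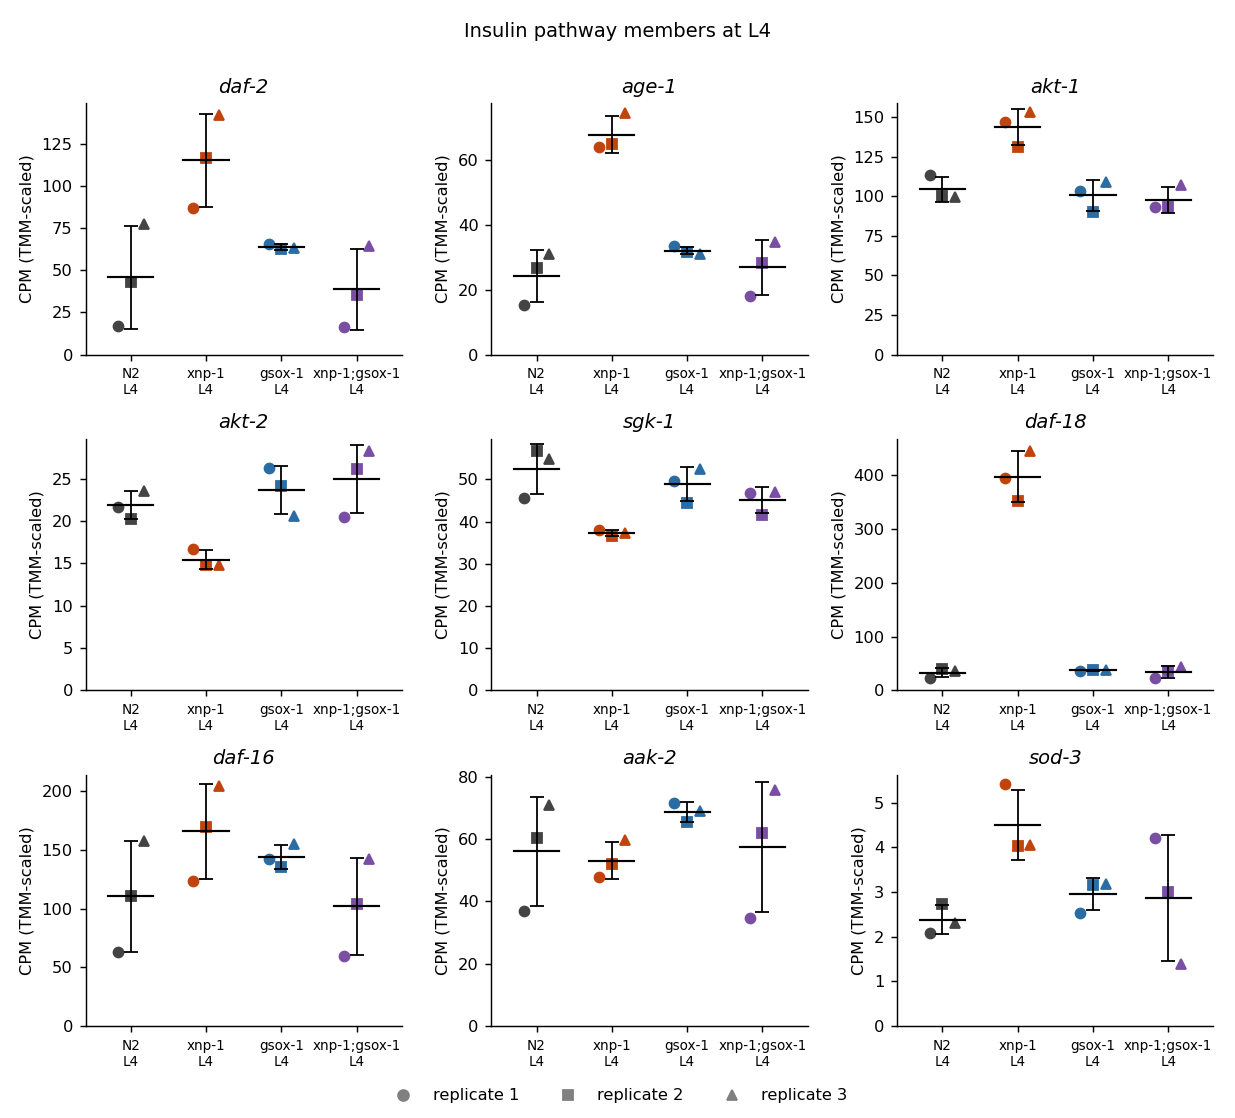
CPM (TMM-scaled) of the 9 members in each L4 library, one panel per gene, with the marker shape giving the replicate; lines and bars are the mean ± SD of 3 libraries, and each axis starts at 0. daf-18 is at 352 to 446 CPM in xnp-1 and at 23.0 to 44.2 CPM in the other 9 libraries. Replicate 1 of N2, of xnp-1 and of xnp-1;gsox-1 is the lowest of its group for daf-2, age-1, daf-16 and aak-2. For daf-18 this holds in N2 and xnp-1;gsox-1 but not in xnp-1.

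daf-18 stood at 23.5, 39.2 and 36.5 CPM in N2, at 395, 352 and 446 CPM in xnp-1, at 36.5, 37.7 and 38.5 CPM in gsox-1 and at 23.0, 36.2 and 44.2 CPM in xnp-1;gsox-1. The xnp-1 libraries were set apart from all others, which overlapped each other. The change was 3.59 ± 0.27 on the log2 scale, 12.02-fold (adjusted p = 3.02e-06, edgeR), and 3.39 to 3.73 under 14 alternatives. Relative to xnp-1, the double was lower by 11.5-fold (log2 change -3.53 ± 0.27, adjusted p = 4.18e-06), and the interaction of the genotypes was -3.71 ± 0.36 (adjusted p = 7.19e-05). In the same xnp-1 libraries oocyte markers were higher by a median of 4.42 on the log2 scale. The part of oocytes in the daf-18 level was not tested. Of the 6 nearest genes on chromosome IV that were tested, eri-1, which lies next to daf-18 on the same strand, rose by 1.44 ± 0.17 (adjusted p = 4.1e-05), kgb-1 and Y66H1A.5 fell by 0.87 ± 0.19 and 0.70 ± 0.23 on the log2 scale, and 3 did not pass.

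age-1 was at 15.4, 26.5 and 30.9 CPM in N2, 63.9, 64.8 and 74.3 CPM in xnp-1, 33.3, 31.6 and 31.1 CPM in gsox-1 and 17.9, 28.04 and 34.5 CPM in xnp-1;gsox-1. The xnp-1 libraries lay above every other library, and N2 and the double had 1 low library each. The rise in xnp-1 was 1.48 ± 0.27, 2.79-fold (adjusted p = 0.000908, edgeR), the double was lower than xnp-1 by 2.53-fold (log2 change -1.34 ± 0.27, adjusted p = 0.00198), and the interaction was -1.74 ± 0.38 (adjusted p = 0.00529). All 3 calls were kept under every alternative tried. aap-1, which encodes the regulatory subunit paired with AGE-1, rose by 1.75 ± 0.15 in xnp-1, from 19.9 ± 2.08 to 66.9 ± 2.55 CPM. Of the 3 nearest tested genes upstream of age-1, all on its strand, mdt-8 and Y62F5A.12 rose by 1.70 ± 0.16 and 2.14 ± 0.29 and Y62F5A.9 fell by 1.93 ± 0.36 on the log2 scale. On the other strand Y62F5A.10 fell by 2.11 ± 0.28 and B0334.10 by 3.56 ± 1.18, and srh-44 did not pass.

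Relative to each other, the phosphatase gained on the kinase. Per kb of exon daf-18 was 1.80, 1.75 and 1.39 times age-1 in N2 and 7.28, 6.41 and 7.08 times age-1 in xnp-1. gsox-1 libraries had 1.29, 1.40 and 1.46 and xnp-1;gsox-1 libraries 1.52, 1.52 and 1.51. The ratio in the double varied less than in any other group, although the CPM of both genes varied between its libraries. With 3 libraries a group an exact permutation test cannot go below a two-sided p of 0.1, and the ratios are given without one.

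**Figure D5:**
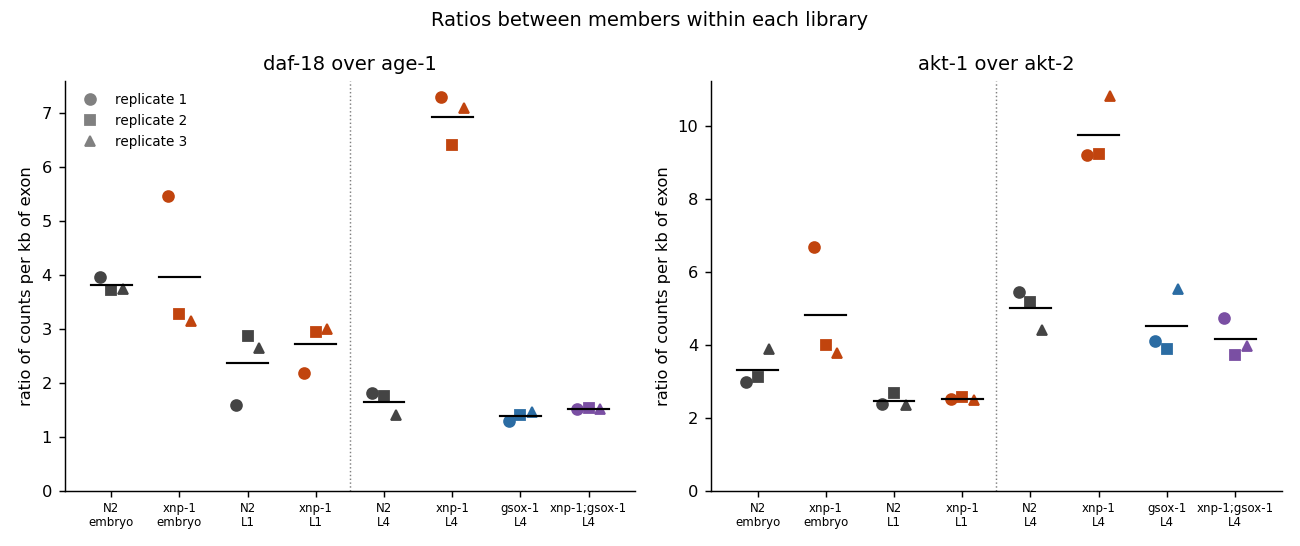
Ratio of counts per kb of exon of daf-18 to age-1 (left) and of akt-1 to akt-2 (right) in each of 24 libraries, with the marker shape giving the replicate and a line at the mean of 3; the dotted line divides the embryo and L1 table from the L4 table, which are not compared. xnp-1 L4 libraries are highest in both panels, at 6.41 to 7.28 and 9.20 to 10.8, and xnp-1 embryo library 1 is the highest of its table, at 5.46 and 6.69.

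daf-2 had the widest relative spread of the members in N2 and in the double at L4, with coefficients of variation of 66.8% and 62.4%. It was at 16.7, 42.9 and 77.6 CPM in N2, 87.1, 116 and 142 CPM in xnp-1, 65.7, 62.4 and 63.1 CPM in gsox-1 and 16.53, 35.1 and 64.4 CPM in xnp-1;gsox-1. All xnp-1 libraries exceeded all others, by little in the lowest case. The difference from N2, 1.33 ± 0.52, missed the threshold (adjusted p = 0.0502, edgeR). Same-numbered libraries of N2 and xnp-1 deviated together, and with the replicate number as a block the difference was called, at 1.51 with all 4 groups fitted (adjusted p = 0.00585) and at 1.60 with only these 2 (0.00253), where 51.3% and 55.9% of all genes were called. The fit of all 4 groups includes the gsox-1 libraries, whose replicate numbers did not pair with those of any other group. The difference from N2 was also called with DESeq2 (1.42, adjusted p = 0.0113), and without N2 replicate 3 (1.95, 0.0128). Without the first libraries of N2 and of the double, an alternative added after seeing the data, it was 0.93 (0.0381). The double was lower than xnp-1 (log2 change -1.57 ± 0.52, adjusted p = 0.0281) and the interaction was -2.05 ± 0.73 (0.0474). Those calls did not survive 5 of 14 and 12 of 18 alternatives, with adjusted p values up to 0.0881 and 0.105. For the double against xnp-1 these were replicate 2 or 3 of xnp-1 or replicate 1 or 2 of the double left out, and no filter on low counts. For the interaction they included 10 of 12 single libraries left out (all but replicate 3 of N2 and of the double), among them those without N2 replicate 1 (-1.65, adjusted p = 0.064) and without the first libraries of N2 and of the double (-1.29, 0.0551).

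akt-1 and akt-2 moved in opposite directions at L4. akt-1 was at 113, 100.2 and 99.5 CPM in N2, 147, 131 and 153 CPM in xnp-1, 103, 89.8 and 109 CPM in gsox-1 and 93.0, 92.9 and 107 CPM in the double. It rose in xnp-1 by 0.46 ± 0.15 (adjusted p = 0.0241, edgeR), with no overlap between xnp-1 and any other group. akt-2 was at 21.7, 20.3 and 23.6 CPM in N2, 16.7, 14.8 and 14.8 CPM in xnp-1, 26.3, 24.1 and 20.6 CPM in gsox-1 and 20.5, 26.1 and 28.2 CPM in the double. The xnp-1 libraries were the lowest, and the change from N2 was -0.50 ± 0.17 (adjusted p = 0.0324). This akt-2 call was lost in 11 of 14 alternatives and the akt-1 call in 5 of 14, with adjusted p values up to 0.101 in both. For akt-2 these included DESeq2 (adjusted p = 0.0629), RLE size factors (0.0704), library totals (0.0637) and every single library of either group left out except N2 replicate 2. For akt-1 they included N2 replicate 2 or 3 and xnp-1 replicate 1 or 3 left out. Between the double and xnp-1, akt-2 was higher by 0.69 ± 0.17 (adjusted p = 0.00724), which held under all alternatives, and akt-1 was lower (log2 change -0.56 ± 0.15, adjusted p = 0.0107), a call lost without xnp-1 replicate 3 (0.0501). The akt-2 interaction was 0.58 (adjusted p = 0.0903) and was called without replicate 1 of the double (0.70, 0.0251), and that of akt-1 was -0.51 (0.087) and was called with DESeq2 (-0.58, 0.0295). The akt-1 to akt-2 ratio per kb was 5.46, 5.17 and 4.41 in N2 against 9.20, 9.24 and 10.8 in xnp-1. It was 4.11, 3.90 and 5.53 in gsox-1 and 4.74, 3.72 and 3.97 in the double, so xnp-1 was alone above the others.

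sgk-1 levels were 45.6, 56.8 and 54.9 CPM in N2, 38.02, 36.6 and 37.4 CPM in xnp-1, 49.8, 44.4 and 52.6 CPM in gsox-1 and 46.8, 41.54 and 47.0 CPM in the double. The xnp-1 libraries were the lowest and nearly equal, and sgk-1 fell there by 0.49 ± 0.14 on the log2 scale (adjusted p = 0.0142, edgeR). The call was lost without the filter on low counts (adjusted p = 0.0676) and without N2 replicate 2 or xnp-1 replicate 2 (0.0577 and 0.0507). rict-1 and sinh-1, which encode parts of the TOR complex that acts on SGK-1, rose in the same comparison by 1.58 ± 0.33 and 1.33 ± 0.28.

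daf-16 was at 63.3, 111 and 157 CPM in N2, 123, 169.6 and 204 CPM in xnp-1, 142, 135 and 155 CPM in gsox-1 and 59.7, 103.8 and 142 CPM in the double. N2 and the double each ran over more than a 2-fold range and overlapped xnp-1. The change in xnp-1 was 0.58 ± 0.35 and was not called (adjusted p = 0.19, edgeR), but in each same-numbered pair xnp-1 was higher. The replicate block called the change at 0.64 with all 4 groups fitted (0.032) and at 0.69 with only N2 and xnp-1 (0.00919). With the block, daf-16 was also called lower in the double than in xnp-1, at -0.75 in both fits (0.0172 and 0.0149, beside 47.3% and 48.9% of all genes). In the interaction it was called at -1.24 with the block over all 4 groups (0.0112, beside 36.7% of all genes). That block, as in the other fits of all 4 groups, includes the gsox-1 libraries, whose replicate numbers did not pair with those of any other group. The call with it therefore does not settle the interaction. Without the block, leaving out replicate 3 of the double gave a called difference from xnp-1 and a called interaction (-1.04 and -1.47, adjusted p = 0.0372 and 0.0344, edgeR). The interaction was called also without N2 replicate 3 (-1.42, 0.0453).

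aak-2 was at 36.9, 60.2 and 70.9 CPM in N2, 47.7, 52.0 and 59.6 CPM in xnp-1, 71.7, 65.4 and 68.9 CPM in gsox-1 and 34.7, 62.0 and 75.7 CPM in the double. All groups but xnp-1 and gsox-1 overlapped each other, and xnp-1 differed from N2 by -0.08 ± 0.28 with a 95% interval of -0.73 to 0.57. par-4, its upstream kinase, rose in xnp-1 by 1.67 ± 0.30.

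sod-3 stayed low in every L4 library, at 2.09, 2.73 and 2.30 CPM in N2, 5.41, 4.04 and 4.05 CPM in xnp-1, 2.53, 3.16 and 3.18 CPM in gsox-1 and 4.21, 2.99 and 1.40 CPM in the double. xnp-1 lay above N2 and gsox-1 and overlapped the double. The rise relative to N2 was 0.92 ± 0.35, 1.89-fold (adjusted p = 0.0457, edgeR), and it was lost in 9 of 14 alternatives with adjusted p values up to 0.144. Among them was the replicate block with all 4 groups fitted (0.0542), which includes the unpaired gsox-1 libraries. Leaving out any 1 library of N2 or xnp-1 ended the call. The double did not differ by call from xnp-1 (log2 change -0.65, adjusted p = 0.147), but without replicate 1 of the double it did (-1.03, 0.0306), as did the interaction (-1.34, 0.0398).

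Between the double and xnp-1, 5 of 9 members were called, 1 higher and 4 lower, beside 22.3% and 21.9% of all genes and 44.2% called in all, and 6 of 9 were separated by library beside 56.5%. The interaction, which asks whether xnp-1 changed a gene differently when gsox-1 was also in the label, was called for 3 of 9 (daf-2, age-1 and daf-18) beside 33.3% of all genes. Without xnp-1 replicate 3 the double differed from xnp-1 in 3 members, with the share of all genes not given for that fit. These comparisons and that of xnp-1 with N2 share the xnp-1 libraries, so they are not independent of each other.

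The other pathway genes in xnp-1 at L4 are read beside the 23.3% of all genes that rose and the 25.3% that fell. Of the 10 pathway components, which include regulators of DAF-16 or DAF-2 output, 5 rose and none fell. Their median was 0.75 beside -0.16 for all genes. Besides aap-1 the risers were the PDK1 kinase gene pdk-1 (1.27 ± 0.29) and, among those regulators, ddl-1 (1.18 ± 0.19), ddl-2 (1.32 ± 0.32) and rle-1. Of 9 DAF-16 cofactors or parallel transcription factors, 4 rose and none fell. Among the risers were hcf-1 (1.38 ± 0.20), a nuclear repressor of DAF-16, and the heat shock factor hsf-1 (1.49 ± 0.26), a parallel factor. Of 9 TOR genes 5 rose and none fell, and of 11 AMPK genes 5 rose and 2 fell. Of 12 insulin-like ligands 4 fell, 1 rose and 7 did not pass, with a median of -0.39. ins-35 and ins-33 fell by 2.48 ± 0.37 and 2.30 ± 0.48 on the log2 scale, and ins-7 rose by 1.31 ± 0.39. Oocyte and germline markers rose in the same libraries (8 of 8 and 5 of 6), and their part in these group counts was not tested.

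Targets of DAF-16 did not move as one group with sod-3 at L4. Of 19 tested genes known to rise with DAF-16, 4 were higher and 7 lower in xnp-1, with the catalase genes ctl-1 and ctl-2 lower by 1.08 ± 0.23 and 1.19 ± 0.20 (log2 changes -1.08 and -1.19). Both are named also among the superoxide dismutases and catalases, of which 3 of 6 fell and none rose. The largest rise in the first list was that of the small heat shock gene sip-1, at 2.82 ± 0.35, which is known for its expression in oocytes and embryos. Of 12 genes known to fall with DAF-16 5 were higher, and the largest were the vitellogenins vit-2 (6.39 ± 1.06) and vit-5 (8.29 ± 1.88), which also belong to the yolk list above. mtl-1, which rose in N2 larvae, was at 0.962 ± 0.331 CPM in N2 and 1.11 ± 0.128 CPM in xnp-1 at L4. pck-1, the gluconeogenic enzyme gene, fell from 151 ± 4.196 to 39.1 ± 3.91 CPM (log2 change -1.95, adjusted p = 4.99e-06, edgeR).

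Ordered within each group per kb of exon, so that genes of different length can be compared, akt-1 was the most abundant member in N2 at every stage, at 65.7 ± 3.82 CPM per kb in embryos, 112 ± 35.1 in L1 larvae and 45.8 ± 3.37 at L4. daf-18 came next in N2 embryos at 61.7 ± 2.08, with SDs that met. In N2 L1 larvae it stood under akt-2, at 27.97 ± 8.53, and within N2 L4 larvae under aak-2, at 9.93 ± 2.52. In xnp-1 L4 larvae daf-18 was the first, at 119.3 ± 14.1 CPM per kb, ahead of akt-1 at 63.1 ± 5.08. At the low end, age-1 was at 16.2 ± 0.921 in N2 embryos and sod-3 at 2.42 ± 0.995, while in N2 L1 larvae sod-3 (21.1 ± 14.1) lay above age-1 (11.9 ± 1.38) with overlapping spread. Within N2 embryos daf-2 (34.5 ± 3.58) was in the middle of the order, and within N2 L4 larvae only sod-3 was below daf-2 (5.51 ± 3.68).

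Over the 8 groups, daf-18, sod-3 and daf-2 had the widest profiles, with SDs of 1.23, 0.94 and 0.54 of the group means (log2(CPM + 1), centred within each table). The added 1 narrows the spread of a gene at few CPM, such as sod-3. The profiles most like that of daf-18 among 15670 genes tested in both tables were those of meg-3, ced-3 and C17E7.12, with root mean square differences of 0.07, 0.08 and 0.09 on the log2 scale. meg-3 encodes a P granule protein of the embryonic germline and ced-3 the caspase of programmed cell death. Closest to sod-3 were gst-2, C14C6.2 and F35D11.3 (0.07, 0.12 and 0.13), and closest to daf-2 were dkf-2, lfi-1 and pdzd-8 (0.13, 0.14 and 0.15). These are descriptions over 8 group means that share their libraries.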

How the data were processed

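The authors deposited raw counts per gene, with no normalization, in 2 poly(A) tables of 46926 genes for the WS280 gene set. Per the file headers, featureCounts 2.0.1 counted embryo and L1 fragments and featureCounts 2.0.6 counted L4 reads without the option for read pairs, so both mates may be counted there. Both were strand-specific (setting 2) with a minimum mapping quality of 10, which separates members from the antisense genes that overlap age-1, akt-1, daf-16, aak-2 and sod-3. Per the submitters' processing notes, FastQC, Trim Galore, STAR and SAMtools were used, with versions not given in the sources used here. A table named for small RNAs was not used here. Symbols came from a gene name table that matched 44114 of the 46926 IDs.

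Each table was fitted on its own in R 4.3.3 with edgeR 4.0.16 (TMM after filterByExpr on the groups, a 4-group design, robust quasi-likelihood F test, two-sided, Benjamini-Hochberg over all genes tested). DESeq2 1.42.0 was an alternative, beside RLE size factors, library totals, no filter, fits of only the groups compared, a replicate block and leaving out each library. The fit was also run on simulated data with changed genes, and no result of that run is given here. Profiles used log2(CPM + 1). The p-values measure the spread between labelled biological replicates, whose separate origin the labels do not detail further. Members, lists and rules were chosen with earlier results of these data known. Named were all members, xnp-1 and gsox-1, of each list up to 4 called genes with the smallest adjusted p per comparison, 3 neighbours on each side, and the 3 nearest profiles. Other list genes were named after their values were seen: ins-6, rle-1, sod-2 and, in L4 larvae, mtl-1. gsox-1 was found through its RefSeq locus tag, and 21 of 25 genes known to rise with DAF-16 were matched.

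Replicate numbers were taken to pair libraries where every same-numbered correlation of deviations from group means exceeded 0.1: N2 with xnp-1 L1 larvae (0.71 to 0.87), N2 with xnp-1 (0.27 to 0.41), N2 with xnp-1;gsox-1 and xnp-1 with xnp-1;gsox-1 at L4, and N2 embryos with either L1 group. They did not pair the embryos of both genotypes, the xnp-1 embryos with xnp-1 L1 larvae, or the libraries labelled gsox-1.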

Additional observations from a re-analysis of the deposited data

Results flagged for a closer look

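For 3 members the difference between xnp-1 and N2 at L4 was not the same when gsox-1 was also in the label, by the interaction term of edgeR. The term was -3.71 ± 0.36 on the log2 scale for daf-18 (adjusted p = 7.19e-05), -1.74 ± 0.38 for age-1 (0.00529) and -2.05 ± 0.73 for daf-2 (0.0474), in fits of 3 libraries per group. These are 3 of 9 members beside 33.3% of all genes with a called interaction, and the daf-2 call was lost in 12 of 18 alternatives, with adjusted p values up to 0.105. All 8 of 8 oocyte markers were called lower in the same term, and their part in it was not tested. In each case xnp-1 alone was higher than the 3 other groups. gsox-1 mRNA itself was at 162.6 ± 14.9 CPM in xnp-1 and at 70.5 ± 24.7 CPM in the double, and its level did not distinguish the libraries labelled gsox-1 from N2.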

How the results depend on the processing

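Of 25 member changes that were called, 13 were called under every alternative: akt-2, daf-18 and sod-3 in both comparisons of L1 larvae with embryos, age-1 and daf-18 in xnp-1 at L4, age-1, daf-18 and akt-2 between the double and xnp-1, and age-1 and daf-18 in the interaction. Among 1287 member values under alternatives, 60 lost a call, 32 gained one and no called value changed sign. 73 values that were called neither way crossed 0. Counts of called members stayed within 1.5 times in 133 of 143 cases. Without the filter on low counts, xnp-1 at L4 had 2 members called and the double against xnp-1 had 3. The first libraries of N2 and of the double left out together, chosen after seeing the data, gave 5 in the interaction. Leaving out 1 library at a time gave 3 to 7 for N2 larvae, 3 to 4 for xnp-1 at L4 and 3 to 6 for the double against xnp-1. The shares of all genes called in the fits without the filter or without libraries are not given, so these counts are no result about the members. With the replicate block for the 2 L1 groups, 2 members were called, beside 11.6% of all genes. At L4 the block called 7 for xnp-1, beside 51.3% of all genes with all 4 groups fitted and 55.9% with 2. It called 6 for the double against xnp-1, beside 47.3% and 48.9%. For the xnp-1 stages, whose numbers did not pair, age-1 was lost in the 2-group block (adjusted p = 0.0533, edgeR). Beyond the calls given with daf-2, daf-16, sod-3, daf-18 and akt-2 (adjusted p = 0.0641 for akt-2 at L4 in the 2-group block), the block changed no call. Causes were not tested. Each group has 3 libraries, and the smallest member count was 29, for sod-3 in an xnp-1 embryo library.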
